A study of Mus musculus with 28 samples.

Results

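The 7 Wnt ligand genes of the primitive streak, *Wnt3*, *Wnt3a*, *Wnt5a*, *Wnt5b*, *Wnt8a*, *Wnt11* and *Wnt2b*, were taken by symbol from the mm9 annotation of the mouse genome, which holds 22380 protein-coding genes, and all 7 were found. Their chromatin was measured by ChIP-seq in mesodermal cultures at day 4 of differentiation. All cells were mouse ESCs labelled *Brg1*f/f; Actin-CreER, grown as embryoid bodies without serum until day 2 and then for 40 h with VEGF, activin A and BMP4. From day 2 the cultures received 200 nM 4-OHT in THF, which activates CreER and deletes the floxed *Brg1* alleles, or THF alone, and the latter are called control. The controls thus carried the floxed alleles and CreER as well, and the actin promoter drives CreER in all cells rather than in mesoderm alone. Lists of enriched regions were used for H3K27ac (2 control and 2 4-OHT replicates), H3K27me3 (3 and 3), Suz12 (2 and 2) and FLAG-tagged Brg1 (3 replicates at normal Brg1 levels). For FLAG the labels give the same floxed line, whereas the study describes ESCs with a tagged *Brg1* allele. The lists carry no expression values, so loss of *Brg1* could not be checked in them. The study itself reports loss of Brg1 protein in this line after 4-OHT and of *Brg1* RNA at day 4. It proposes that some Brg1 activity might remain, since the protein falls gradually during induction.

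Wnt proteins are secreted lipid-modified ligands that bind Frizzled receptors with the co-receptors Lrp5 and Lrp6, or with Ror and Ryk receptors. *Wnt3* is needed to form the primitive streak, *Wnt3a* maintains the later streak and tailbud, and *Wnt8a* is transcribed in the early streak. These ligands act through β-catenin. *Wnt5a*, *Wnt5b* and *Wnt11* are better known for β-catenin-independent signaling that guides cell movement during gastrulation, and *Wnt2b* is a canonical ligand that appears in mesoderm and several later organs. Brg1 is the ATPase of BAF chromatin remodeling complexes. H3K27ac marks active promoters and enhancers. Suz12 is a subunit of Polycomb repressive complex 2, which writes H3K27me3, and the same lysine cannot carry both marks.

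The promoters of the 7 ligands fell into several kinds in control cultures. *Wnt3* and *Wnt8a* had H3K27ac regions and no H3K27me3 or Suz12 region within 5 kb of the gene start, whereas *Wnt3a*, *Wnt5b* and *Wnt11* had H3K27me3 and Suz12 regions and no H3K27ac. *Wnt5a* had H3K27ac and H3K27me3, the latter covering only 0, 0 and 125 bp within 2.5 kb of the start, and *Wnt2b* had all 3 marks. Thus H3K27ac was listed in both control lists at 4 of the 7, against 47.7% of all protein-coding genes, H3K27me3 in at least 2 control lists at 5, against 14.2%, and Suz12 in both at 4, against 6.03%. Shown to compare CpG content are the promoters of *Wnt3*, with acetylation only within 5 kb of the gene start, and of *Wnt3a* and *Wnt11*, with Polycomb marks only there. Each sequence is the 250 bases before the annotated gene start in mm9, 5′ to 3′ on the strand of the gene, with CpG dinucleotides in capitals.
Wnt3 promoter (chr11:103635214-103635463, plus strand): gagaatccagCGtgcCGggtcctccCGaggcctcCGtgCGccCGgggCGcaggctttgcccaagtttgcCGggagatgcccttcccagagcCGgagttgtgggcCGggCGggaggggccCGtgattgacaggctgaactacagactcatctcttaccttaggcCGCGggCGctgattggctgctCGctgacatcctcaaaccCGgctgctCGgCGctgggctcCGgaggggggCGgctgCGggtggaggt
Wnt3a promoter (chr11:59104255-59104504, minus strand): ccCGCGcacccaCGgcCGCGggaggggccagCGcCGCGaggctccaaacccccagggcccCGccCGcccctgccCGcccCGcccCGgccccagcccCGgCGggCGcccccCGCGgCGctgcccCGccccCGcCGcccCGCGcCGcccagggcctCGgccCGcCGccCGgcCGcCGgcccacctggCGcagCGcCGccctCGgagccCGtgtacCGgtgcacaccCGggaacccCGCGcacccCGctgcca
Wnt11 promoter (chr7:105983372-105983621, plus strand): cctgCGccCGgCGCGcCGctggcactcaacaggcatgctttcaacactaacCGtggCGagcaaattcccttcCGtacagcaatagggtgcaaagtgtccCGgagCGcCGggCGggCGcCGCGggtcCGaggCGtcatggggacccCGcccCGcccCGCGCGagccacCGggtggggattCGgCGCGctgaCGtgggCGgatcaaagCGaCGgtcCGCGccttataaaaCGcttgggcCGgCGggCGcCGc

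These 250 bases held 22 CpG dinucleotides at *Wnt3*, 41 at *Wnt3a* and 37 at *Wnt11*. Over 1 kb centered on the gene start, the ratio of observed to expected CpG was 0.617 at *Wnt3* and 0.254 at *Wnt8a*. It was 0.655 at *Wnt5a*, 0.749 at *Wnt3a*, 0.782 at *Wnt2b*, 0.817 at *Wnt11* and 0.992 at *Wnt5b*. Hence the 5 genes with H3K27me3 within 5 kb of the start had higher ratios than the 2 genes without it. At *Wnt5a*, however, most of that H3K27me3 lay outside the 1 kb measured. *Wnt5b* lay above 97.8% of all protein-coding genes. The median over all protein-coding genes was 0.549. It was 0.694 for the 2649 genes with H3K27me3 within 5 kb of the start in all 3 control lists and 0.463 for the 18298 genes with none. *Wnt8a* lay above 28.1% of genes and *Wnt3* above 56.0%.

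The lists give positions only, so the measure used throughout is the covered length, the number of bases of a window that lie in enriched regions of a replicate. A value of 0 means that no region passed the threshold of that list, not that the mark is absent, and read depth is unknown. The mean total length of the lists was 29.4 Mb in control and 27.3 Mb after 4-OHT for H3K27ac, 9.81 and 7.12 Mb for H3K27me3 and 3.88 and 4.17 Mb for Suz12, and replicates overlapped between conditions for each. FLAG replicates 1 and 2 listed 8021 and 8257 regions and replicate 3 listed 192. Replicate 1 of H3K27me3 stood apart in both conditions, with a median region width of 250 bp against 350 to 425 bp in the other lists. A gene is called lower or higher after 4-OHT when all 4-OHT replicates lie below or above all control replicates. The exact permutation test, two-sided, cannot give a p below 0.333 for 2 replicates against 2 or 0.1 for 3 against 3, so these calls are read against the share of all protein-coding genes with any covered base that were called the same way. Among marker genes, 5 of 6 mesoderm markers (T, *Eomes*, *Mixl1*, *Mesp1* and *Pdgfra*) had an H3K27ac region within 5 kb of the start in both control lists, whereas *Kdr* had none. None of 3 endoderm or 3 annotated neural markers had one, and 2 of 4 pluripotency markers and 1 of 4 cardiomyocyte markers (*Tnnt2*) did. After 4-OHT, H3K27ac was called lower at 2 of the 5 mesoderm markers with any covered base (T and *Mesp1*). The same call was made at 1 of 3 such pluripotency markers (*Nanog*) and 1 of 2 such cardiomyocyte markers (*Tnnt2*), against 12.6% of genes. It overlapped at *Eomes*, *Mixl1*, *Pdgfra*, *Pou5f1*, *Zfp42* and *Myl7*, and was still not listed at the endoderm and neural markers. *Zfp42* covered 375 and 0 bp in control against 1375 and 325 bp after 4-OHT. The part of such differences between the cultures in the values below was not tested.

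H3K27ac within 5 kb of the gene start was listed at 4 of the 7 genes. It was shorter in all 4-OHT replicates at *Wnt3* and *Wnt2b*. In whole cultures, fewer cells with the mark and less of the mark per cell cannot be told apart. At *Wnt3* the covered length was 4625 and 7300 bp in control against 3950 and 3875 bp after 4-OHT, a mean of 5962.5 ± 1892 bp against 3912.5 ± 53.0 bp (SD, n = 2 each) and a ratio of 0.656 (exact permutation p = 0.333, the smallest possible). The difference of -2050 bp was -712.5 bp without control replicate 2, and within 2.5 kb of the start the replicates overlapped. At *Wnt2b* it was 775 and 3275 bp in control and 0 in both 4-OHT lists. These control replicates differed widely from each other, but both lay above the 4-OHT replicates. At *Wnt5a* the replicates overlapped, with 2650 and 3525 bp in control against 2500 and 2975 bp after 4-OHT. Both same-numbered pairs were shorter there, as at 15.9% of genes, but the numbers were not taken to pair samples of this mark. At *Wnt8a* the replicates also overlapped, with 425 and 950 bp in control against 825 and 1100 bp after 4-OHT, although both same-numbered pairs were longer, as at 52% of genes. Hence 2 of 4 genes were called lower, against 12.6% of 12031 genes, and 0 were called higher, against 39.8%. The median difference was -1187.5 bp over the 4 ligands and 112.5 bp over all genes tested.

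**Figure D1:**
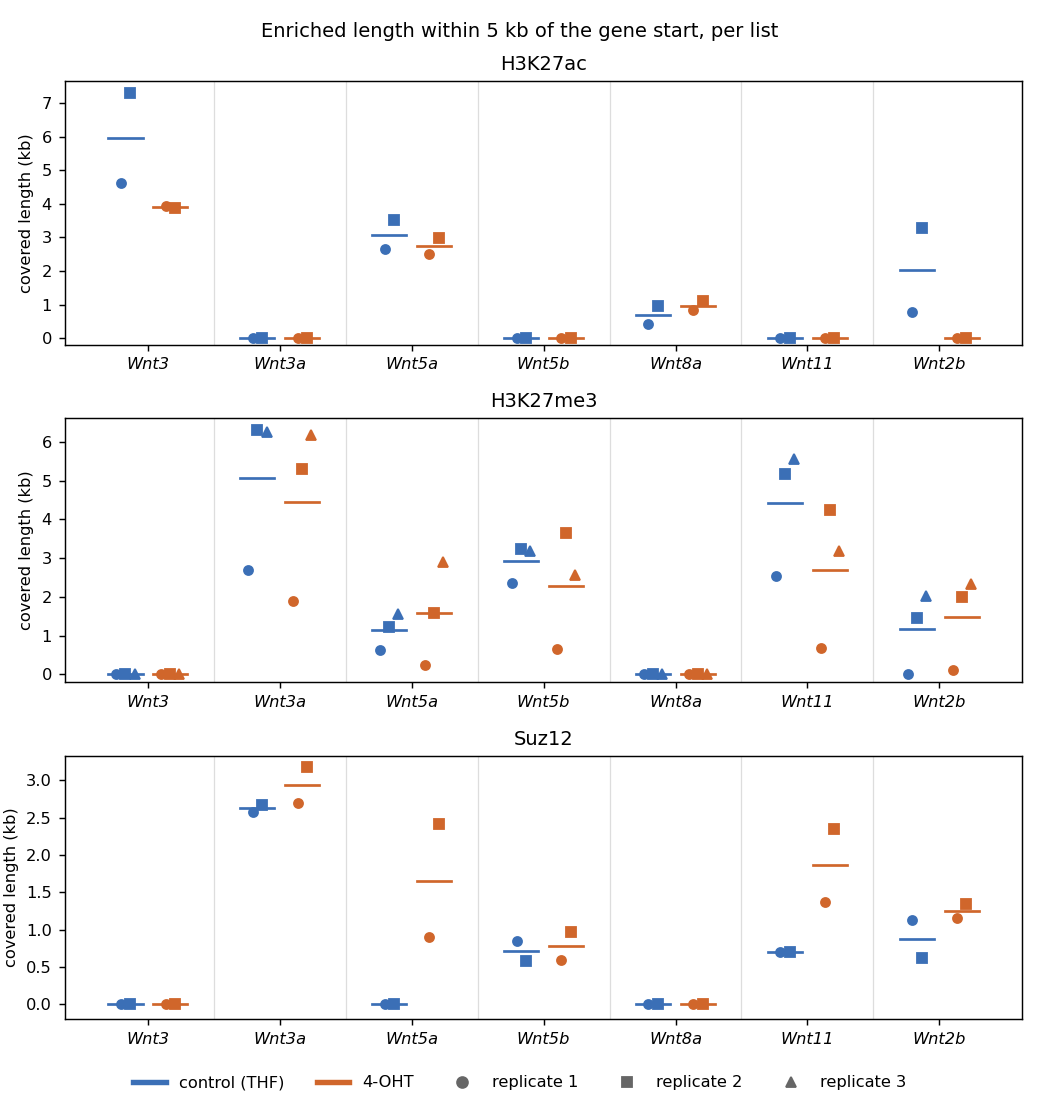
Covered length in kb within 5 kb of the gene start of each ligand for H3K27ac, H3K27me3 and Suz12, with 1 symbol for each replicate, colored by condition, and short lines at the mean. H3K27ac at *Wnt2b* is at 0 in both 4-OHT replicates, and Suz12 at *Wnt5a* is at 0 in both control replicates and at 0.9 kb or more after 4-OHT.

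Across the gene bodies the pattern was wider. Each of the 7 ligands had H3K27ac somewhere in its body in control, and 5 were called lower after 4-OHT, against 18.3% of 12542 genes. In all 7 each 4-OHT list was shorter than the control list of the same number, against 22% of genes. For H3K27ac, however, these numbers were not taken to pair the samples. None of the 7 was called higher, against 33.3% of genes. The median difference was -412.5 bp for the ligands and 62.5 bp for all genes. The amounts were very unequal. *Wnt3* went from 10512 and 18237 bp in control to 3462 and 5337 bp, or 0.306 times the control mean. *Wnt11* had 925 and 1500 bp in control against 300 and 500 bp after 4-OHT, or 0.330 times. *Wnt2b* had 475 and 1300 bp in control and none after 4-OHT. *Wnt3a* (375 and 100 bp) and *Wnt8a* (25 and 134 bp) had little to begin with and were at 0 in both 4-OHT lists. Where a gap of 250 bp between conditions was required, only *Wnt3*, *Wnt11* and *Wnt2b* were still called lower. *Wnt5a* (2590 and 3440 bp against 2440 and 2865 bp) and *Wnt5b* (10775 and 11200 bp against 10175 and 10975 bp) overlapped between conditions.

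**Figure D2:**
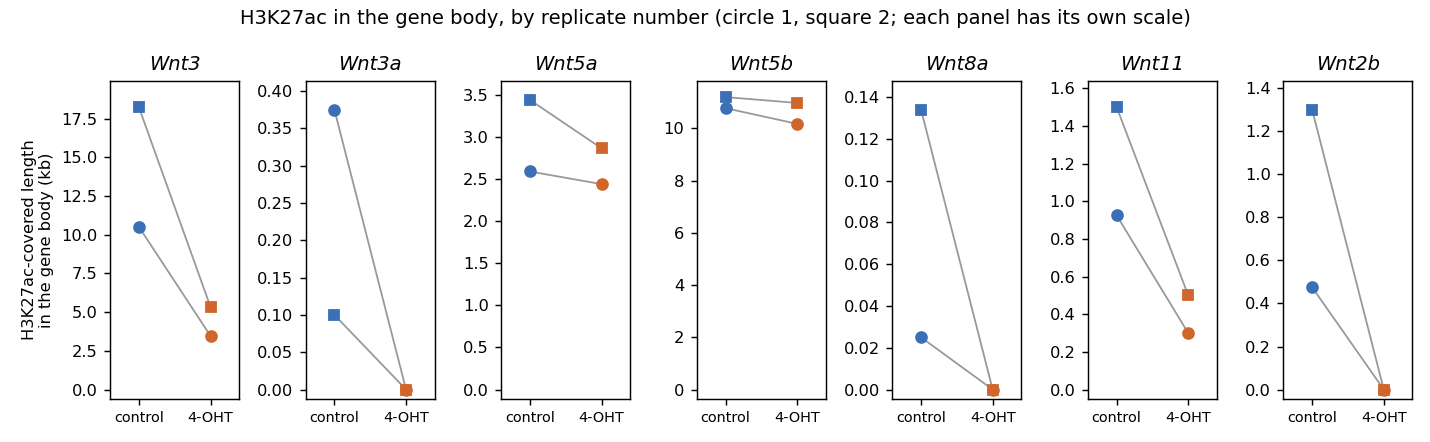
H3K27ac-covered length in kb of each gene body in control and after 4-OHT, with a separate vertical scale for each gene. Lines join replicates of the same number, which were not taken as pairs for this mark. All 14 lines slope down, steeply for *Wnt3* and *Wnt11* and slightly for *Wnt5a* and *Wnt5b*.

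*Wnt3* (chromosome 11, 103635464 to 103679271, plus strand) had the most Brg1-bound regions. The term Brg1-bound is used for a region that 2 or more of the 3 FLAG lists have in common, by 1 base or more. Of the 2390 Brg1-bound regions, 4 lay within 50 kb of the *Wnt3* start, 1 at 2.96 kb upstream and 3 within introns at 35.3, 36.4 and 40.5 kb downstream. Their middle 300 bases are shown because they are the sequences under Brg1 at the ligand with the largest difference in H3K27ac (mm9, plus strand, CpG in capitals).
Wnt3 Brg1-bound region upstream of the gene (chr11:103632351-103632650, plus strand): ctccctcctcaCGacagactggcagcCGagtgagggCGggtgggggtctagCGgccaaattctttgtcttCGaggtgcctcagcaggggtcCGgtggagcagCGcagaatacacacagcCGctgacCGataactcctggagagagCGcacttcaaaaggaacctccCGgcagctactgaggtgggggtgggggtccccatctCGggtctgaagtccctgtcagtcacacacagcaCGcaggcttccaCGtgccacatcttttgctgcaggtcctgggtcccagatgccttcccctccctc
Wnt3 Brg1-bound region in the second intron, wider (chr11:103670638-103670937, plus strand): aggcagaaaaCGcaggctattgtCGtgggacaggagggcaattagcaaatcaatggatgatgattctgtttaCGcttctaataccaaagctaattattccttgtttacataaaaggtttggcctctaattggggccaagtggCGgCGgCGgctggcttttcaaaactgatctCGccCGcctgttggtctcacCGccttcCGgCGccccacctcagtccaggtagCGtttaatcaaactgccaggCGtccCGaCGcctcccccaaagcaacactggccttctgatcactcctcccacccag
Wnt3 Brg1-bound region in the second intron, narrower (chr11:103671726-103672025, plus strand): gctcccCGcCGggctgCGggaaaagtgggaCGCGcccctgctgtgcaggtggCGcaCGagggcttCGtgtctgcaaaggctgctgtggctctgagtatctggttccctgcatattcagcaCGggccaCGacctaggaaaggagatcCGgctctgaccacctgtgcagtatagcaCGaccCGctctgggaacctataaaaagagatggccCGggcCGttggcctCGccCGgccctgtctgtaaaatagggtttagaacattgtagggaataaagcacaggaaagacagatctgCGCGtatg
Wnt3 Brg1-bound region in the fourth intron (chr11:103675851-103676150, plus strand): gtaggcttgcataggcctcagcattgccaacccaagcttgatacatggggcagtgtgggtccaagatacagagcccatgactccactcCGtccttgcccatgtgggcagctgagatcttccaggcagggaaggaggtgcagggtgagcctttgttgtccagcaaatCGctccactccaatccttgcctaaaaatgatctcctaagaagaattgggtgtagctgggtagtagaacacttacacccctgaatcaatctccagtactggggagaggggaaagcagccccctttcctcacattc

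The upstream region covers 475 and 550 bp in FLAG replicates 1 and 2, and the wider intronic region covers 1300 and 1100 bp. FLAG replicate 3 listed no region near any of the 7 genes, so each Brg1-bound call here rests on replicates 1 and 2. The middle 300 bases held 14, 15, 19 and 2 CpG dinucleotides in the order printed. They were searched on both strands, without mismatch, for the core letters of 5 kinds of factor. For TCF/LEF factors, the partners of β-catenin on DNA, the letters were ATCAAAG. For T-box factors such as T and Eomes they were AGGTGTGA. The letters of GATA factors, regulators of mesoderm and endoderm, were AGATAAG. Foxh1, a partner of Smads in Nodal signaling, was searched as AATCCACA. Smad proteins, which carry activin and BMP signals, were searched as CAGACAG. None of these motifs contains another, and partial overlaps of matches were allowed. The narrower region of the second intron held 1 match, to the Smad letters, which are found in 8.28% of all Brg1-bound regions over the same length. The other 3 held none of these letters. The TCF/LEF letters occurred in the 300 bases centered on 5.61% of Brg1-bound regions. Of the 6 near the ligands, only that at 19.4 kb from the *Wnt8a* start had them in those bases, with 1 match. That region is 150 bp wide, so the match may lie beside it.

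The difference in H3K27ac was uneven along *Wnt3*. The region over the gene start, from 103631576 to 103637100, covered 4150 and 5525 bp in control against 3950 and 3875 bp after 4-OHT. The Brg1-bound bases upstream were fully covered by H3K27ac in all 4 lists. In the first intron, a region from 103658151 to 103660575 covered 1250 and 2425 bp in control and was in neither 4-OHT list. No Brg1-bound region lay in it. Further along, a region from 103664076 to 103672275, which runs from the first into the second intron, covered 5925 and 8200 bp in control against 2500 and 3925 bp after 4-OHT. It holds both Brg1-bound regions of the second intron. The wider of them, of 1325 bp, was covered by H3K27ac over its whole length in all 4 lists, whereas the narrower, of 400 bp, was covered fully in both control lists and over 0 and 125 bp after 4-OHT. A region from 103674476 to 103677550, at the end of the gene, covered 2350 and 3075 bp in control against 450 and 1000 bp after 4-OHT. In it the Brg1-bound region of 350 bp was covered fully in control and over 125 and 275 bp after 4-OHT. The 3 control H3K27ac regions at *Wnt3* with a Brg1-bound region were thus all shorter but still listed after 4-OHT. The 2 control regions that were missing from both 4-OHT lists had no Brg1-bound region. The 3 were also wider, at 5525, 8200 and 3075 bp against 1725 and 2425 bp, and the parts of width and binding in this were not tested. Over predicted enhancers as a whole, the study reports greater H3K27ac losses at those bound by Brg1. Most H3K27me3 within 50 kb of *Wnt3* lay around *Wnt9b*, whose start is 24.3 kb upstream. There *Wnt3* was called lower at 4100, 3600 and 3225 bp in control against 2650, 3075 and 2575 bp after 4-OHT (exact permutation p = 0.1, the smallest possible), against 15.5% of 8533 genes, but this was not so after scaling to the total length of each list, where the mean was 287 bp higher after 4-OHT and the replicates overlapped.

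**Figure D3:**
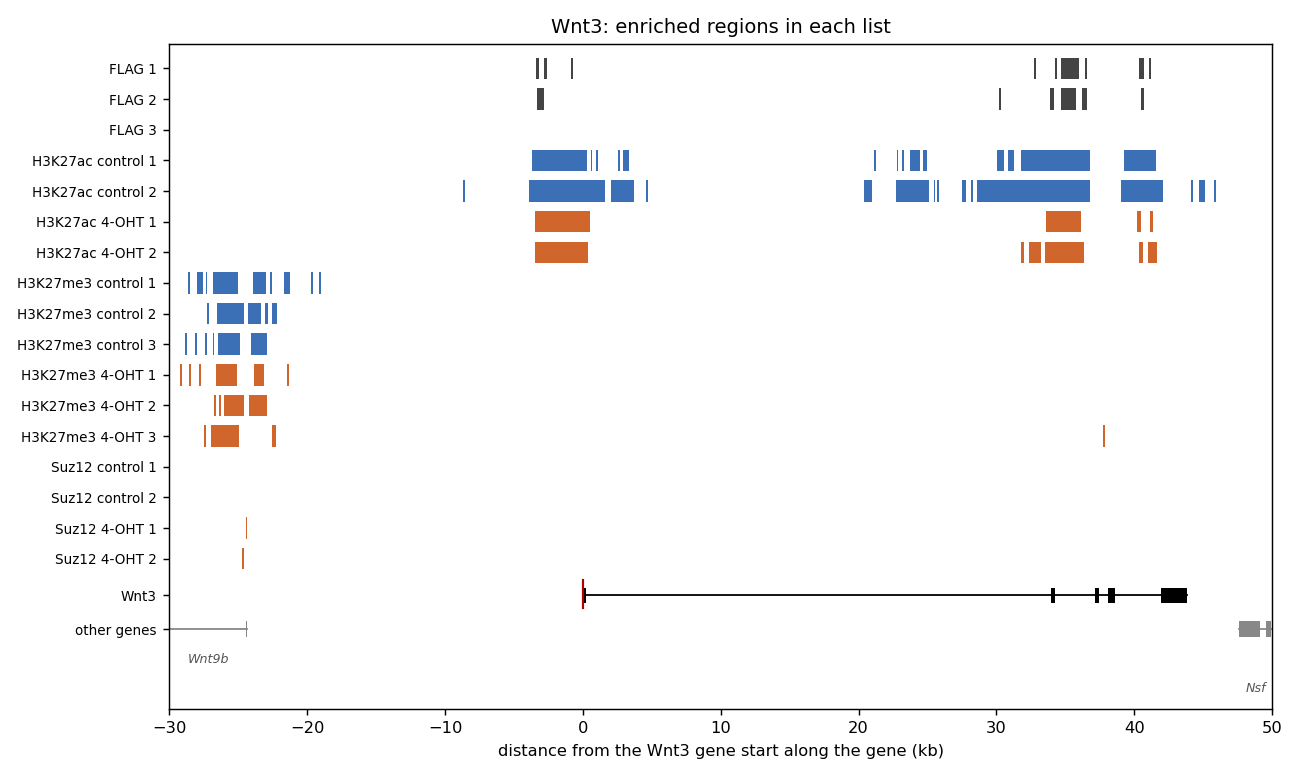
Enriched regions of every list around *Wnt3*, plotted as bars against distance from the gene start in kb along the gene, with 1 row for each replicate, FLAG in gray, control in blue and 4-OHT in orange, and exons as boxes below. H3K27ac at the gene start is in all 4 lists, the cluster near 24 kb is in the control lists only, and the bars beyond 30 kb are shorter after 4-OHT.

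*Wnt8a*, the other β-catenin ligand with acetylation and no Polycomb mark at its promoter, occupies 34701967 to 34707927 of chromosome 18, plus strand. H3K27ac differed between regions near its start and those downstream of its end. An upstream region, from 34700126 to 34701100, covered 400 and 650 bp in control against 800 and 950 bp after 4-OHT, without overlap, as did 27.7% of all promoter regions merged over the lists. A region on the start itself covered 25 and 175 bp in control and none after 4-OHT, and one 0.504 kb upstream overlapped. With regions within 1 kb joined, the mean difference within 5 kb of the start was -262.5 bp and the replicates overlapped, so no direction is drawn for the promoter as a whole. Downstream of the gene, each of the 5 regions that were in both control lists was shorter in both 4-OHT lists. The nearest, centered 6.83 kb from the start, covered 1200 and 1300 bp in control against 950 and 975 bp after 4-OHT, and the next, at 9.42 kb, covered 425 and 950 bp in control against 200 and 400 bp. The regions at 12.7, 18.7 and 19.5 kb, covering at most 625 bp in control, were in neither 4-OHT list. Of all distal H3K27ac regions merged over the lists, 22.7% were called lower and 11.8% higher. Brg1-bound regions lay in the nearest of the 5, at 6.73 kb, and in the farthest, at 19.4 kb. The bound bases at 6.73 kb kept H3K27ac in both 4-OHT lists and those at 19.4 kb had none. Each was narrow, with 25 and 150 bp in FLAG replicates 1 and 2 at 6.73 kb and 125 and 75 bp at 19.4 kb. The next gene downstream is *Nme5*, which the 18.7 and 19.5 kb regions lie nearer to. Over the whole window of 50 kb on each side, H3K27ac at *Wnt8a* overlapped between conditions, at 6250 and 7775 bp in control against 7000 and 6425 bp after 4-OHT, and this window also takes in the promoter of *Fam13b*.

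*Wnt3a* (chromosome 11, 59061535 to 59104254, minus strand) had the widest Polycomb domain of the 7. H3K27me3 covered 2700, 6300 and 6250 bp within 5 kb of its start in control, against 1900, 5300 and 6175 bp after 4-OHT. The groups overlapped, replicate 1 was short in both conditions, and each same-numbered pair was lower after 4-OHT. The mean difference was -625 bp, but 799 bp upward after scaling to the total length of each list and 654 bp upward without 4-OHT replicate 1, so that no direction is drawn from the means. Suz12 covered 2575 and 2675 bp in control against 2700 and 3175 bp after 4-OHT, 1.12 times the control mean. All Suz12-covered bases lay within H3K27me3, 2700 bp in control and 3175 bp after 4-OHT when the lists of a condition were joined. The only H3K27ac in the gene was an intronic region 26.5 kb downstream of the start, with 375 and 100 bp in control and none after 4-OHT. *Wnt9a*, a neighboring Wnt ligand 16.2 kb upstream, carried H3K27ac, H3K27me3 and Suz12 of its own within the window of 50 kb.

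*Wnt11* (chromosome 7, 105983622 to 106003705, plus strand) carried the same promoter marks but a larger shift. H3K27me3 within 5 kb covered 2550, 5175 and 5550 bp in control against 679, 4250 and 3175 bp after 4-OHT, a mean of 4425 ± 1635 bp against 2701 ± 1832 bp (SD, n = 3 each, exact permutation p = 0.3). It was lower in each of the 3 pairs. Suz12, in contrast, covered 700 bp in both control lists and 1375 and 2350 bp after 4-OHT, 2.66 times the control mean and without overlap. The H3K27me3 call for a region 2.91 kb upstream was lower without overlap, at 650, 825 and 1150 bp in control against 0, 400 and 0 bp after 4-OHT. Suz12 just inside the gene, 1.27 kb from the start, covered 25 and 0 bp in control against 525 and 975 bp after 4-OHT. No H3K27ac was listed within 5 kb of the gene start. An intronic region 6.58 kb downstream covered 925 and 1500 bp in control against 300 and 500 bp after 4-OHT. Its near part lay within 2.5 kb of an inner annotated start at 3.73 kb, where H3K27ac covered 355 and 405 bp in control against 300 and 330 bp after 4-OHT. A region 37.2 kb upstream covered 875 and 1275 bp in control and was in neither 4-OHT list, whereas one 19.3 kb upstream covered 2075 and 2025 bp in control against 2100 and 1975 bp after 4-OHT. FLAG replicates 1 and 2 each listed 3 regions in or just before *Wnt11*, covering 25 to 325 bp, but none was shared, so no region was Brg1-bound. The promoter printed above held 1 match to the TCF/LEF letters (gatcaaag, near its 3′ end), as did the promoter of *Wnt8a* and 3.05% of all promoters over that length.

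*Wnt5a* (chromosome 14, 29317936 to 29340633, plus strand) carried both active and repressive marks, as did *Wnt2b*. Its 6 annotated starts span the first part of the gene. In control, H3K27me3 lay mainly in regions centered 4.10 and 8.00 kb from the gene start, downstream of the main H3K27ac region. The H3K27ac region over the first 2 starts covered 2600 and 3000 bp in control against 2500 and 2975 bp after 4-OHT, and no Suz12 region was listed in the gene in control. After 4-OHT Suz12 covered 900 and 2411 bp within 5 kb of the start and 900 and 3300 bp of the gene body. H3K27me3 in the gene body covered 1450, 2150 and 3000 bp in control against 2275, 3375 and 4650 bp after 4-OHT, 1.56 times the control mean (exact permutation p = 0.2). The groups overlapped, but all 3 same-numbered pairs were higher, by at least 825 bp. An increase of any size in every pair was found in 0.755% of 3839 genes. The largest part of it was a region centered 8.00 kb from the start, with 525, 925 and 1475 bp in control against 1825, 1575 and 1800 bp after 4-OHT, without overlap. Bases in both H3K27ac and H3K27me3 regions numbered 525 in control and 825 after 4-OHT within 5 kb of the start, and bases in both H3K27ac and Suz12 regions numbered 0 and 1175. Marks on the same cells and marks on different cells cannot be told apart in these lists. H3K27ac 23.99 kb downstream of the start, just past the gene end, covered 1650 and 2200 bp in control and was in neither 4-OHT list. No Brg1-bound region lay there, and FLAG replicate 2 alone listed 50 bp.

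*Wnt2b* (chromosome 3, 104747723 to 104764627, minus strand) lost the listed H3K27ac of its promoter. Separate H3K27ac regions, 3 in number, were in both control lists, centered 1.09 kb upstream and 0.701 and 1.58 kb downstream of the start, and covered 300 and 825 bp, 200 and 600 bp, and 275 and 700 bp. None of the 3 was in either 4-OHT list. A region of similar length 6.02 kb upstream remained listed, at 225 and 750 bp in control against 75 and 300 bp after 4-OHT. H3K27me3 within 5 kb of the start covered 0, 1450 and 2025 bp in control against 100, 2000 and 2325 bp after 4-OHT, which was higher in each of the 3 pairs while the groups overlapped. Suz12 covered 1125 and 625 bp in control against 1150 and 1350 bp after 4-OHT. Bases in both H3K27ac and H3K27me3 regions numbered 750 in control and 0 after 4-OHT. FLAG replicates 1 and 2 listed 75 and 50 bp within 5 kb of the start, at positions that did not overlap.

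**Figure D4:**
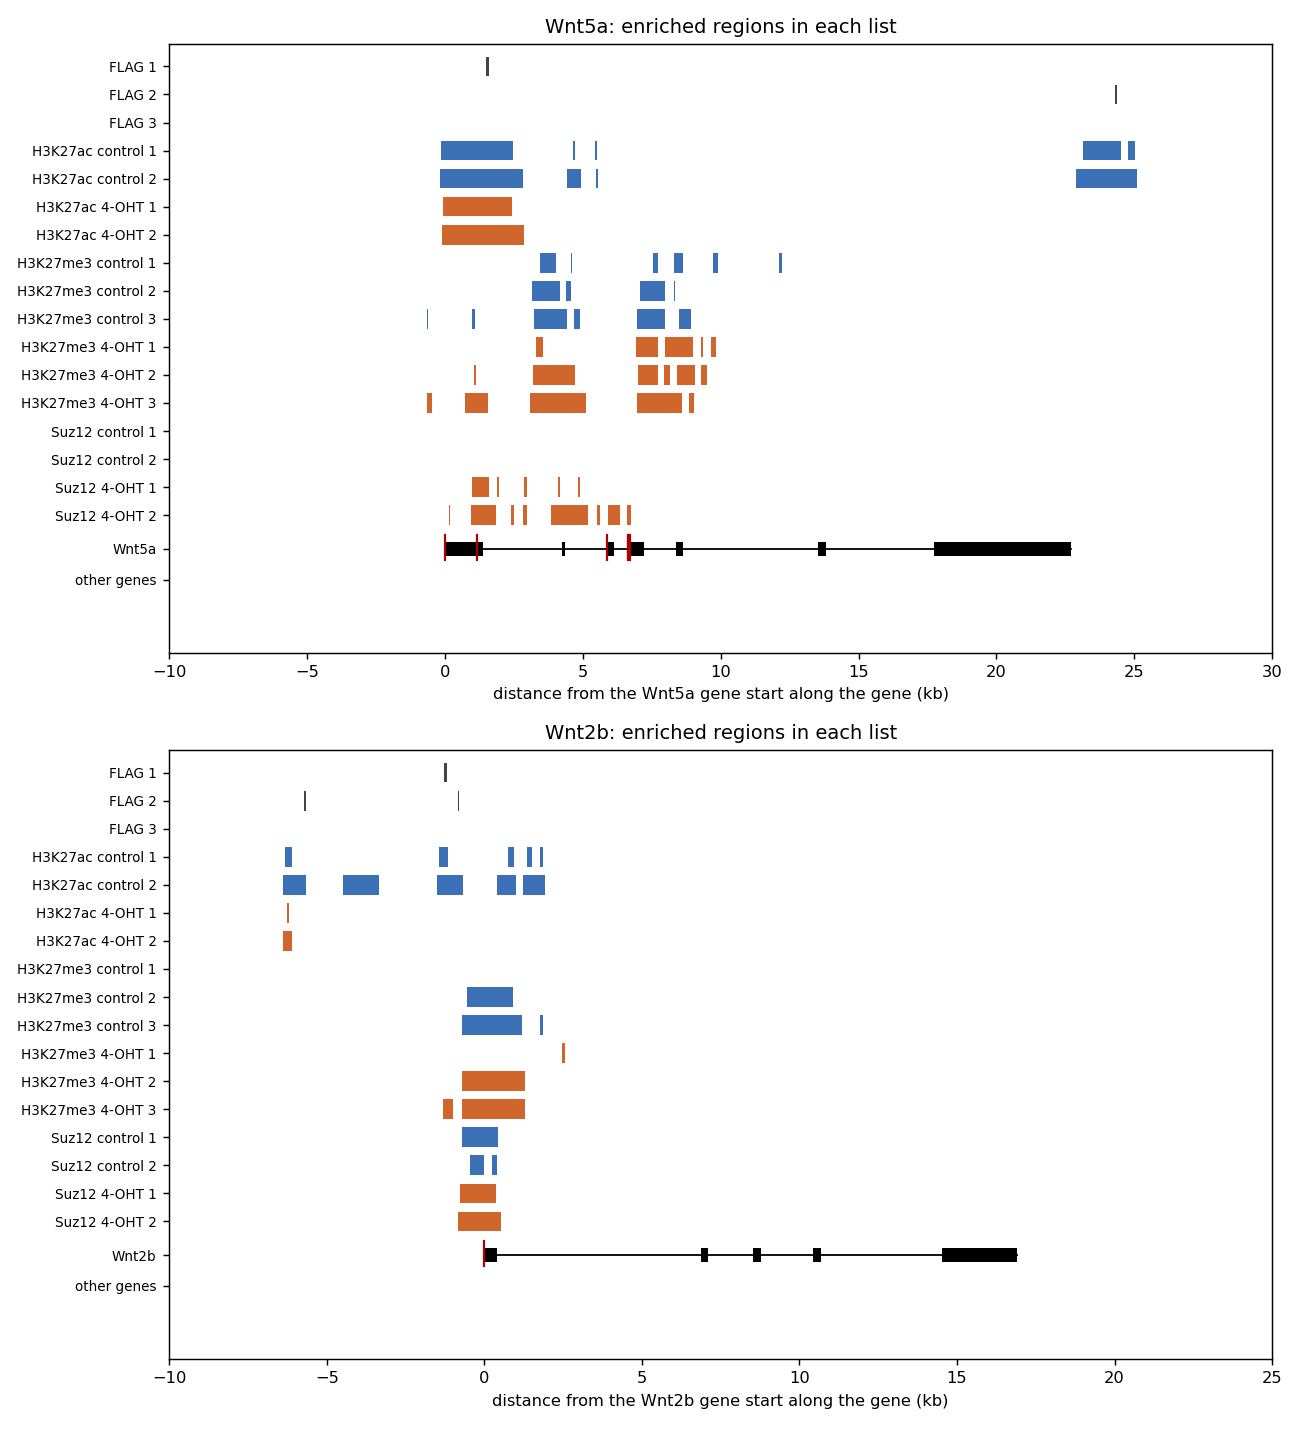
Enriched regions of every list around *Wnt5a* (top) and *Wnt2b* (bottom), as bars against distance from the gene start in kb along the gene, with 1 row for each replicate, FLAG in gray, control in blue, 4-OHT in orange, and annotated transcript starts as red ticks. Suz12 bars at *Wnt5a* appear in the 4-OHT rows only, and H3K27ac bars within 2 kb of the *Wnt2b* start appear in the control rows only.

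*Wnt5b* (chromosome 6, 119382549 to 119494336, minus strand) had separate promoters in opposite states. At the gene start H3K27me3 covered 2350, 3225 and 3175 bp in control against 650, 3650 and 2575 bp after 4-OHT, and Suz12 covered 850 and 575 bp in control against 600 and 975 bp after 4-OHT. Neither differed beyond the overlap of the replicates. No H3K27ac was listed there in any of the 4 lists. At the start of a shorter transcript, 94.9 kb further along the gene, H3K27ac within 2.5 kb covered 3729 and 3876 bp in control against 3554 and 3629 bp after 4-OHT, a small difference without overlap, and no H3K27me3 or Suz12 was listed. A transcript start between them, at 77.1 kb, had none of the 3 marks. H3K27ac next to the inner start, centered 98.4 kb along the gene, covered 1775 and 2050 bp in control against 450 and 1200 bp after 4-OHT. An intronic region at 7.94 kb was instead longer after 4-OHT, with 1000 and 75 bp in control against 1450 and 1175 bp. The window of 50 kb around the gene start held this region and not the inner start, so that *Wnt5b* was called higher there, at 1100 and 75 bp in control against 1700 and 1400 bp after 4-OHT. With the gene body and 50 kb beyond it, the mean was 337.5 bp lower after 4-OHT and the replicates overlapped. Part of the H3K27ac in the body lies at *Fbxl14*, a gene inside *Wnt5b*.

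**Figure D5:**
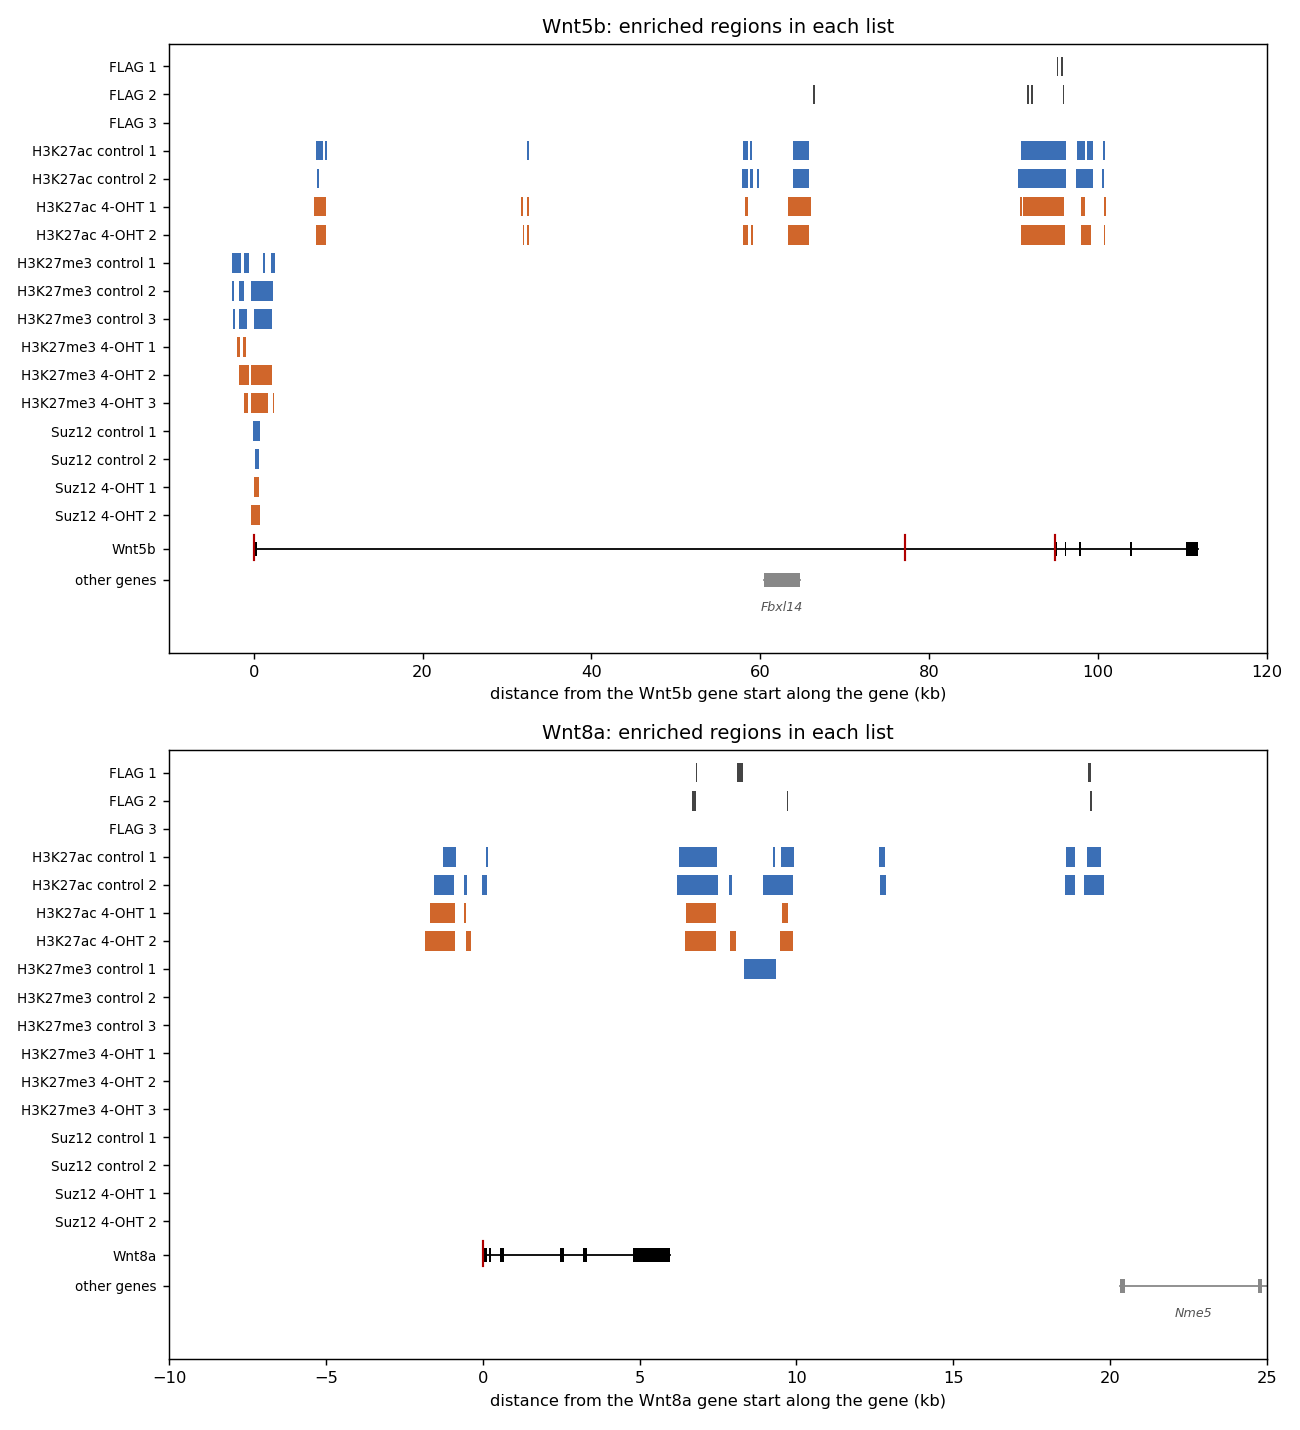
Enriched regions of every list around *Wnt5b* (top) and *Wnt8a* (bottom), as bars against distance from the gene start in kb along the gene, with 1 row for each replicate, FLAG in gray, control in blue, 4-OHT in orange, and annotated transcript starts as red ticks. At *Wnt5b* the H3K27me3 and Suz12 bars sit at the gene start and the longest H3K27ac bars near 94.9 kb, and at *Wnt8a* the bars at 12.7, 18.7 and 19.5 kb are in the control rows only.

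Considering the 7 ligands together, H3K27me3 within 5 kb of the start was listed at 5, with no call in either direction, against 12% of 4204 genes lower and 0.19% higher. When same-numbered replicates were paired, *Wnt3a* and *Wnt11* were lower in every pair, against 44.1% of genes. *Wnt2b* was higher in every pair, against 0.809% of genes. That result depends on how replicates 2 and 3 are paired, here and within 50 kb. Control replicate 3 of *Wnt2b* (2025 bp) lay above 4-OHT replicate 2 (2000 bp). After scaling to the total length of each list, which was shorter after 4-OHT on average, the mean difference turned upward at *Wnt3a* (799 bp), whereas it was -832 bp at *Wnt11* and 606 bp at *Wnt2b*. At *Wnt2b* the mean difference was -262.5 bp without control replicate 1 and -108 bp without 4-OHT replicate 3. The median difference was -625 bp for the ligands and -275 bp for all genes. Within 50 kb, *Wnt5a* and *Wnt2b* were higher in every pair, against 0.598% of genes, and *Wnt3*, *Wnt3a* and *Wnt11* lower, against 48.8%. The exact test of 3 pairs cannot give a p below 0.25. Suz12 had any covered base in either condition at 5 ligands. It was higher at 4 of them (*Wnt3a*, *Wnt5a*, *Wnt11* and *Wnt2b*), against 32.1% of 2290 such genes, and lower at none, against 5.76%. *Wnt5a* was at 0 in both control lists, so it entered this count through its 4-OHT lists alone. Where a gap of 250 bp was required or lengths were scaled to the total of each list, *Wnt5a* and *Wnt11* alone were still called higher. Within 50 kb Suz12 was also higher at 4 genes, *Wnt3* in place of *Wnt3a*, against 30.1% of 4532 genes, and lower at none, against 5.47%. The call at *Wnt3* rests on 50 and 150 bp after 4-OHT against 0 in control, at the promoter of *Wnt9b*. No list had Suz12 within 5 kb of the *Wnt3* start or in its gene body. Within 5 kb, *Wnt3a* and *Wnt11* thus had Suz12 called higher with H3K27me3 lower in each pair, and *Wnt2b* had Suz12 called higher with H3K27me3 higher in each pair. At *Wnt5a* H3K27me3 in this window was lower in 1 pair and higher in 2.

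Within 50 kb of the starts, H3K27ac was called lower at 4 of 7 genes (*Wnt3*, *Wnt5a*, *Wnt11* and *Wnt2b*), against 20% of 17242 genes, and higher at *Wnt5b* alone, against 39.7%. At *Wnt5a* it covered 4375 and 6050 bp in control against 2500 and 2975 bp after 4-OHT. In these windows 29 H3K27ac regions were in both control lists, and 14 of them were in neither 4-OHT list. Among the distal ones, more than 2.5 kb from any annotated start, 7 of 15 were missing (46.7%, exact Clopper-Pearson 95% interval 21.3 to 73.4%), against 33.1% of all 13914 such regions. Among those nearer to a start, 7 of 14 were missing (50.0%, interval 23.0 to 77.0%), against 6.04% of 13418. The intervals cover counting error only, and regions of a gene share their locus. The missing regions near a start belonged to *Wnt2b* (3), *Wnt5a* (2), *Wnt3* (1) and *Wnt8a* (1). The choice of window matters here, since 17 of 61 regions (27.9%) were missing within 100 kb.

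The middle 300 bases of the widest such missing region at *Wnt5a*, past its 3′ end, and at *Wnt11*, far upstream, are shown as examples of acetylated sequence with few CpG dinucleotides (mm9, plus strand, CpG in capitals).
Wnt5a region without H3K27ac after 4-OHT (chr14:29341776-29342075, plus strand): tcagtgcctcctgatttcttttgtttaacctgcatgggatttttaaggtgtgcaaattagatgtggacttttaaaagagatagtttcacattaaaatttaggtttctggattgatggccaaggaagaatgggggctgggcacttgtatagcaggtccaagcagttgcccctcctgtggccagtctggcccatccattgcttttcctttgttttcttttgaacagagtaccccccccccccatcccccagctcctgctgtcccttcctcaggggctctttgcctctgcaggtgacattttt
Wnt11 region without H3K27ac after 4-OHT (chr7:105946313-105946612, plus strand): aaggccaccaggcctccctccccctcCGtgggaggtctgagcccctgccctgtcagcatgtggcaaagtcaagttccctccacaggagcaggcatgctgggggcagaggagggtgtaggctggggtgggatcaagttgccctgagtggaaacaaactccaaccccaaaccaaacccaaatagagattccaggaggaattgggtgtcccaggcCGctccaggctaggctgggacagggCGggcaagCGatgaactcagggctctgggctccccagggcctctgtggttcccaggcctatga

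They held 0 and 4 CpG dinucleotides, and neither held any of the 5 motifs searched. The TCF/LEF letters occur in 5.54% of all distal control H3K27ac regions over the same length and the Smad letters in 10.9%.

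Brg1-bound regions lay within 5 kb of the start at 1 of 7 ligands (*Wnt3*), against 2.11% of all genes, and within 50 kb at 2 of 7 (*Wnt3* and *Wnt8a*), against 9.32%. Counting a region in any single FLAG list gave 4 of 7 within 5 kb and 6 of 7 within 50 kb, and with FLAG replicate 1 or 2 left out neither count exceeded 0. Absence of a bound region at the other 5 is thus a statement about these lists.

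Other genes of the pathway were taken from fixed lists. The other 12 Wnt ligands were mostly Polycomb-marked, with an H3K27me3 region within 5 kb of the start in at least 2 control lists at 11 of 12, against 14.2% of all genes, and an H3K27ac region in both at 3 (*Wnt2*, *Wnt9a* and *Wnt10a*), against 47.7%. H3K27me3 was lower in every pair at 10 of these 12, against 44.1% of genes, and higher in every pair at none, against 0.809%. H3K27ac was called lower at 1 of the 4 with any covered base (*Wnt2*), against 12.6% of genes, and higher at none, against 39.8%. *Wnt2*, a close relative of *Wnt2b*, had H3K27ac in control only, at 750 and 1550 bp. *Wnt4*, *Wnt9a* and *Wnt10a* overlapped with a longer mean after 4-OHT, and the median difference over the 4 was 313.5 bp. Suz12 was higher at 2 and lower at 2 of the 10 with any covered base in either condition, against 32.1% and 5.76% of genes. Of the 2 called higher, *Wnt9b* was at 0 in both control lists. Of the 15 receptor genes, 13 had H3K27ac in control, with 2 called lower (*Fzd1* and *Fzd7*), against 12.6% of genes, and 1 higher (*Fzd3*), against 39.8%. *Wls*, which carries Wnt proteins to the cell surface, covered 2150 and 2275 bp in control and 2075 bp in both 4-OHT lists, and *Porcn*, which attaches their lipid, had no region of the 3 marks. Of the 9 secreted antagonists, 5 had H3K27ac in at least 1 list. Of these 1 was called lower (*Cer1*, which also binds Nodal and BMP), against 12.6% of genes, and 0 higher, against 39.8%. *Cer1* covered 1300 and 1850 bp in control against 0 and 325 bp after 4-OHT, whereas the median difference over the 5 was -37.5 bp. Of the 12 transducers and targets, 10 had H3K27ac in at least 1 list, and of these 6 were called lower, against the same 12.6%, and 1 (*Ctnnb1*, which encodes β-catenin) higher, against 39.8%. *Lef1*, a transcription factor of the pathway, covered 5650 and 6125 bp in control against 2850 and 5250 bp after 4-OHT. *Axin2*, a feedback inhibitor, covered 3175 and 3525 bp in control against 2200 and 2925 bp after 4-OHT. T, a streak transcription factor that Wnt signaling activates, covered 2188 and 2563 bp in control against 1588 and 1988 bp after 4-OHT.

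The gene most like each ligand was the protein-coding gene with the smallest mean absolute difference in covered length within 5 kb of the start over the 14 lists of the 3 marks, with a window elsewhere in the genome. For *Wnt3* it was *Gpr108*, at a mean difference of 127 bp, with *Snai1* the third. For *Wnt8a* it was *Phf1* at 10.7 bp and for *Wnt5b* *Gfra4* at 179 bp. For *Wnt11* it was *Pax8* at 325 bp and for *Wnt2b* *Chd5* at 391 bp. *Wnt5a* had no gene this close. Its nearest was *Cdh2* at 600 bp, which like *Wnt5a* had a longer H3K27me3 mean after 4-OHT (917 and 1467 bp). The mean H3K27ac length of *Cdh2* was 2163 bp in control and 2100 bp after 4-OHT, against 3087.5 and 2737.5 bp at *Wnt5a*. *Cdh2* did not share the Suz12 of *Wnt5a* after 4-OHT, with a mean of 12.5 bp against 1655.5 bp.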

How the data were processed

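ChIP-seq was performed in 28 samples, of which 11 were inputs used here no further. The authors deposited 17 lists of enriched regions, given as positions (chromosome, start and end) without a score, a count or a p-value for each region. Per the labels, the list headings and the study's methods, a Poissonian model with input as background called the regions of each replicate alone, at a threshold of 1e-12 (read here as a p-value), or of 1e-06 with 2-fold enrichment for FLAG, and the submitters' processing notes name Bowtie and mm9. The labels give biological replicates, 3 for H3K27me3 and FLAG and 2 for the rest. For FLAG the study's methods give duplicates. Depth is unknown, and a region can be lost from a list by depth, threshold or width as well as by loss of the mark.

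The build was checked, since all regions on the 21 chromosomes ended within the lengths of the mm9 genome (chromosome 1 is 197195432 bp long and its furthest region ends at 197068100). Gene starts are the outermost 5′ positions of the GENCODE mm9 annotation. Covered length was summed in windows of 5 and 50 kb on each side of the start and in the gene body. Groups were compared by exact permutation tests, two-sided, and regions of replicates were merged where they shared at least 1 bp. Named genes were the 7 ligands, their neighbors, the listed pathway and marker genes and the most similar gene, which for *Wnt3a* is not reported here. The members, lists and motifs were chosen with earlier results of these data known. Replicate numbers were taken to pair the H3K27me3 samples, as judged from the lists alone. Deviations of same-numbered control and 4-OHT replicates from their condition means correlated over 19499 merged regions (0.932, 0.875 and 0.796). Different-numbered replicates also correlated, at 0.692 for control 2 with 4-OHT 3 and 0.760 for control 3 with 4-OHT 2. The lists thus set replicate 1 apart, and the pairing within replicates 2 and 3 is less certain. Alternatives were other list sizes, scaling, widths, joining, windows and pairing, and leaving out each replicate. Covered length and calls were tested on simulated regions. The scripts ran in Python 3.11.15 with NumPy 2.4.6 and SciPy 1.17.1, and figures were drawn with Matplotlib 3.10.9.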

Additional observations from a re-analysis of the deposited data

How the results depend on the processing

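Depth is unknown, every comparison has 2 or 3 replicates a condition, and the counts of genes are small, so that 1 gene more or less moves them. Of 214 recomputed counts under other settings, 169 stayed within 1.5 times their main value and 45 did not. Within 5 kb of the start, H3K27ac was lower at 2 ligands, at 4 with windows around every transcript start, at 1 within 2.5 kb and at 5 over the gene body, and higher at none, but at 1 (*Wnt8a*) with regions of at least 200 bp or in both same-numbered pairs. Within 50 kb the 1 gene called higher (*Wnt5b*) gave 0 with windows around every start, where its difference was -387.5 bp, and it was -337.5 bp with the gene body and 50 kb beyond it. In gene bodies, where the settings were chosen after the data were seen, 5 genes were lower, against 3 with equal numbers of the widest regions, with regions of at least 200 bp, or with conditions at least 250 bp apart.

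For H3K27me3 the block by replicate number changed 0 lower and 0 higher within 5 kb to 2 and 1, and 1 lower and 0 higher within 50 kb to 3 and 2. Leaving out replicate 1 of both conditions, a setting chosen after the data were seen, gave 2 lower (*Wnt3a* and *Wnt11*) and 1 higher (*Wnt5a*) within 5 kb, and 3 and 1 within 50 kb. Within 50 kb, scaling gave 0 lower and 1 higher (*Wnt5a*), and *Wnt3* then differed by 287 bp upward; the 250 bp gap and a 25 kb window each gave 0 lower. Suz12 was higher at 4 genes within 5 kb, and at 2 after scaling or with the 250 bp gap, as also within 50 kb with that gap (2 against 4). For H3K27ac and Suz12 only 2 pairs exist, and same-numbered replicates correlated at 0.418 and 0.444, so the numbers were not taken to pair these samples. The block then raised H3K27ac higher calls within 5 kb from 0 to 1 (*Wnt8a*) and lower calls from 2 to 3 (*Wnt5a* added), and left the count of missing regions at 14. The cause of each change was not tested, except that other windows take in other regions.

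Brg1-bound regions within 5 kb were found at 1 gene, at 4 with a region in any FLAG list and at 0 within 2.5 kb. Within 50 kb the counts were 2, 6 with any list and 1 (*Wnt3*) with FLAG regions of at least 100 bp. Of control H3K27ac regions, 14 were missing, against 30 of 51 when either control list sufficed. With each replicate left out in turn, H3K27ac lower counts ranged from 2 to 3 within 5 kb, 4 to 5 within 50 kb and 5 to 7 in gene bodies, and higher counts from 0 to 1, 1 to 2 and at 0. Without control replicate 2 or 4-OHT replicate 1, *Wnt8a* was called higher within 5 kb, and within 50 kb *Wnt3a* was added without control replicate 1 and *Wnt8a* without control replicate 2. H3K27me3 ranged from 0 to 2 lower and 0 to 1 higher within 5 kb, and 1 to 3 lower and 0 to 1 higher within 50 kb, with the higher values without control replicate 1 for lower calls (*Wnt3a* and *Wnt11*) and without 4-OHT replicate 1 for higher calls (*Wnt5a*). Suz12 ranged from 4 to 5 higher within 5 kb, and 0 to 1 lower (*Wnt3a*, without 4-OHT replicate 2) and 4 to 6 higher within 50 kb. The Brg1-bound counts ranged from 0 to 1 within 5 kb and 0 to 2 within 50 kb, at 0 without FLAG replicate 1 or 2, and missing regions from 14 to 28, at 28 without either control replicate, where the control regions counted rose from 29 to 46 and the share missing from 48.3% to 60.9%.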
